A study of Homo sapiens with 42 samples.

Results

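The genes described here are 10 regulators of the BCL2 family: BCL2, BCL2L1, MCL1, BCL2A1, BCL2L11, BMF, BBC3, PMAIP1, BIK and HRK. Their members in the data were all open chromatin regions to which the authors' annotation gave one of these symbols, 221 of the 242490 annotated regions in 4 lung cancer cell lines. PC9 had 64 of its 69565 annotated regions at these genes, H1975 64 of 76952, HCC827 20 of 30709 and HCC2935 73 of 65264. BCL2L1 held 45 of the 221 regions, BMF 41, PMAIP1 36, BBC3 26, BCL2L11 23, BCL2 15, BIK 10, MCL1 9, and HRK and BCL2A1 8 each. HCC827 had no annotated region at BCL2, BIK, HRK or BCL2A1. Regions of different lines that overlapped were treated as 1 locus, which gave 97 loci, of which 17 were seen in 4 lines, 23 in 3, 27 in 2 and 30 in 1. The symbol is that of the nearest annotated transcript and does not say which gene a region acts on. Loci are named by gene and by the distance in kb from the start of that transcript, positive downstream.

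The 42 ATAC-seq libraries, 3 in each of 14 groups, came from EGFR-mutant lung cancer lines and measure how open the chromatin of a region is. In all 4 lines, controls were cultured for 21 days without drug and then for 3 days with DMSO, the solvent. Drug-tolerant persisters (DTPs), the cells that survive a long exposure to the inhibitor, received 500 nM osimertinib, an inhibitor of mutant EGFR, for 24 days. In the combination group, 21 days of osimertinib were followed by 3 days of a further drug, AZD5153, at 150 nM. In PC9 and H1975 a further group was kept drug-free for 21 days and then given AZD5153 on its own for 3 days. Whether osimertinib stayed in the medium during the AZD5153 days is not in the labels. The design text calls the triplicates biological. The extraction text in the labels describes a chromatin immunoprecipitation for H3K27ac, while the titles and the design text name ATAC-seq.

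BCL2 family proteins set the threshold of mitochondrial apoptosis. BCL2, BCL2L1 (BCL-XL), MCL1 and BCL2A1 (BFL1) hold the pore formers BAX and BAK in check, and the BH3-only proteins BCL2L11 (BIM), BBC3 (PUMA), PMAIP1 (NOXA), BMF, BIK and HRK bind and block these guardians. In EGFR-mutant lung cells, BIM is held down by EGFR and ERK signalling and takes part in the killing by EGFR inhibitors, while BCL-XL and MCL1 can protect cells from them. In GRCh38.p14 the guardians lie at chr18:63123346-63320090 (BCL2), chr20:31664452-31723963 (BCL2L1), chr1:150574558-150579610 (MCL1) and chr15:79960892-79971196 (BCL2A1). The BH3-only genes lie at chr2:111120914-111168445 (BCL2L11), chr15:40087890-40108879 (BMF), chr19:47220824-47232860 (BBC3), chr18:59899996-59904305 (PMAIP1), chr22:43110750-43129712 (BIK) and chr12:116856144-116881441 (HRK). Regions are given in hg38, the build of the files.

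Each library held between 1724680 and 10062505 counted reads, and levels are given as CPM, the count of a region scaled to the total of its library. In PC9 and H1975, 8 of 12 and 5 of 12 pairs of libraries of a group differed by no more than sampling noise, so these triplicates may be technical and p-values there measure only the spread between such libraries. For this reason a second test, called the summed-library test here, adds up the 3 libraries of a group and takes the spread from HCC2935. In HCC827 the libraries numbered 3 stood apart: the variance between libraries was 3.87 to 8.76 times the counting noise in pairs that held one and 1.21 to 1.92 in the other pairs. All 5 epithelial marker promoters had an annotated region in every line. Of 4 leukocyte markers, 1 had such a region in PC9, 1 in H1975 and 0 in HCC827 and HCC2935. Of 3 fibroblast markers 2, 3, 1 and 2 had one in the order PC9, H1975, HCC827 and HCC2935. In the same order, 1, 3, 2 and 2 of 3 alveolar markers and 2, 2, 0 and 1 of 2 endothelial markers had one. A promoter without an annotated region is not thereby shown to be closed. The fold changes are on the log2 scale after TMM scaling (trimmed mean of M values). Scaling by library size alone shifted all regions by 0.17 in H1975 DTPs and by 0.16 with AZD5153 in H1975, so ratios of CPM there run above the fold changes. "Rose" and "fell" below stand for an adjusted p below 0.05 (edgeR quasi-likelihood test, Benjamini-Hochberg over all regions tested in a line).

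Upstream sequence is shown for 4 starts described below: BBC3, whose start region fell in H1975 DTPs, BCL2L11, whose start was open in all groups, PMAIP1, whose start fell in H1975 DTPs, and the second start of BMF, which fell in H1975 DTPs and with AZD5153. Each is the 250 bases before the RefSeq start in GRCh38.p14, read 5′ to 3′ on the strand of the gene, with motif matches in capitals.
BBC3, chr19:47232668-47232917, minus strand: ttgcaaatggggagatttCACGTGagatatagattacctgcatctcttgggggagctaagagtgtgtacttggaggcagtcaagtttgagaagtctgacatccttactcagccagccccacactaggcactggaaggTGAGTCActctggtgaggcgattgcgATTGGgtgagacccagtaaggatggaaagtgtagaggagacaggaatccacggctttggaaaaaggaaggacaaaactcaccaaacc
BCL2L11, chr2:111120664-111120913, plus strand: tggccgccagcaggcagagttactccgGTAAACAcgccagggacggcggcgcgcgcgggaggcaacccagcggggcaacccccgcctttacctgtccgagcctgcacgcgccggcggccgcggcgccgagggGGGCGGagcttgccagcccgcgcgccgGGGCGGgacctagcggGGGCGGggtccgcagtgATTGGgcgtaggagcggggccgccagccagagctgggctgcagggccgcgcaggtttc
PMAIP1, chr18:59899746-59899995, plus strand: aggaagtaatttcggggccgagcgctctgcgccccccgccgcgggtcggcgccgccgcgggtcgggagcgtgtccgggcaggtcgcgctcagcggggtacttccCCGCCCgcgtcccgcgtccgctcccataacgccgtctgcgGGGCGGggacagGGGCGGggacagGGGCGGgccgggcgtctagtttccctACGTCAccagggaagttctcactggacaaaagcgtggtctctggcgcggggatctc
BMF second start, chr15:40106967-40107216, minus strand: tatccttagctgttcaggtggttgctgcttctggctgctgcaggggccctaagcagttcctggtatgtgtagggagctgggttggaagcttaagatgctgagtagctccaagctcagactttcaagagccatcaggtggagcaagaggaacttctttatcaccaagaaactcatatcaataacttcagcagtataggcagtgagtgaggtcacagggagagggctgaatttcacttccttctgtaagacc
The BBC3 sequence holds an E-box (CACGTG), an AP-1 match (TGANTCA) and an NF-Y box (CCAAT, here on the other strand). The BCL2L11 sequence holds a FOXO match (GTAAACA), 3 SP/KLF boxes (GGGCGG) and an NF-Y box, the PMAIP1 sequence 4 SP/KLF boxes and a CRE core (ACGTCA), and the BMF sequence none of the motifs. On both strands, AP-1 was found in 6.57% of all 35116 RefSeq promoters of this length, the E-box in 6.34%, FOXO in 2.98%, the CRE core in 7.1%, the NF-Y box in 32.0% and the SP/KLF box in 42.6%. The letters GGAATG of the TEAD motif, found in 11.9% of promoters, were in 0 of the 10 member promoters, which covered 8 of the 10 genes (not MCL1 and BIK). None of the matches shown overlaps another, and they are letters in a window, not measured binding sites.

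Among the starts matched in all 4 lines, those of MCL1 and BCL2L11 were open in every group and varied least over the 14 groups. They spanned 2.02-fold and 1.56-fold, and a BCL2L1 start region came next at 2.23-fold. The PMAIP1 start was not among the matched starts. To compare lines, CPM was here taken over the reads in the 82802 regions matched in all 4 lines, which also gives HCC827 a level where it had no annotated region, and the 14 groups were placed in order of their means. MCL1, a short-lived guardian, ran from 26.9 ± 3.02 (SD, n = 3) in HCC2935 controls to 54.4 ± 1.25 in the H1975 combination. BCL2L11 ran from 39.9 ± 2.02 with AZD5153 in PC9 to 62.1 ± 8.86 in the HCC827 combination. For both genes all 13 pairs of neighbours in the order overlapped in their libraries. HRK, a BH3-only gene known from neurons, was open mainly in PC9. The 4 PC9 groups led its order, from 34.9 ± 6.77 in controls to 27.2 ± 2.42 in the combination, and their libraries did not overlap with the next group, HCC827 DTPs at 17.2 ± 2.8. H1975 controls were last at 3.93 ± 0.612.

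Among the matched starts, BCL2L1 had the one with the widest spread. The region 0.7 kb upstream of its internal start spanned 20.9-fold over the 14 groups. HCC827 led with 67.9 ± 16.6 in the combination, 47.0 ± 14.4 in DTPs and 42.8 ± 4.84 in controls. HCC2935 followed with 42.1 ± 3.5, 36.0 ± 1.6 and 24.0 ± 4.78 in the same order. H1975 had 17.3 ± 1.42 in the combination, 8.68 ± 1.24 in DTPs, 8.57 ± 0.438 with AZD5153 and 3.54 ± 0.901 in controls, and PC9 10.9 ± 0.919, 7.75 ± 1.0, 4.79 ± 0.426 and 3.25 ± 0.555. In each line the mean was highest in the combination and lowest in controls, and 7 of 13 neighbouring pairs overlapped. The change from DTPs to the combination was called in H1975 alone. In HCC827 the DTP change was not called either (log2 change 0.264), and it was −0.214 without the libraries numbered 3. The internal start itself spanned 12.4-fold, from 70.9 ± 2.1 in HCC2935 DTPs to 5.72 ± 1.16 with AZD5153 in H1975. The starts of BIK and BCL2A1 were low throughout, at 4.94 to 12.4 and 1.58 to 12.7, with all 13 neighbouring pairs overlapping.

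**Figure D1:**
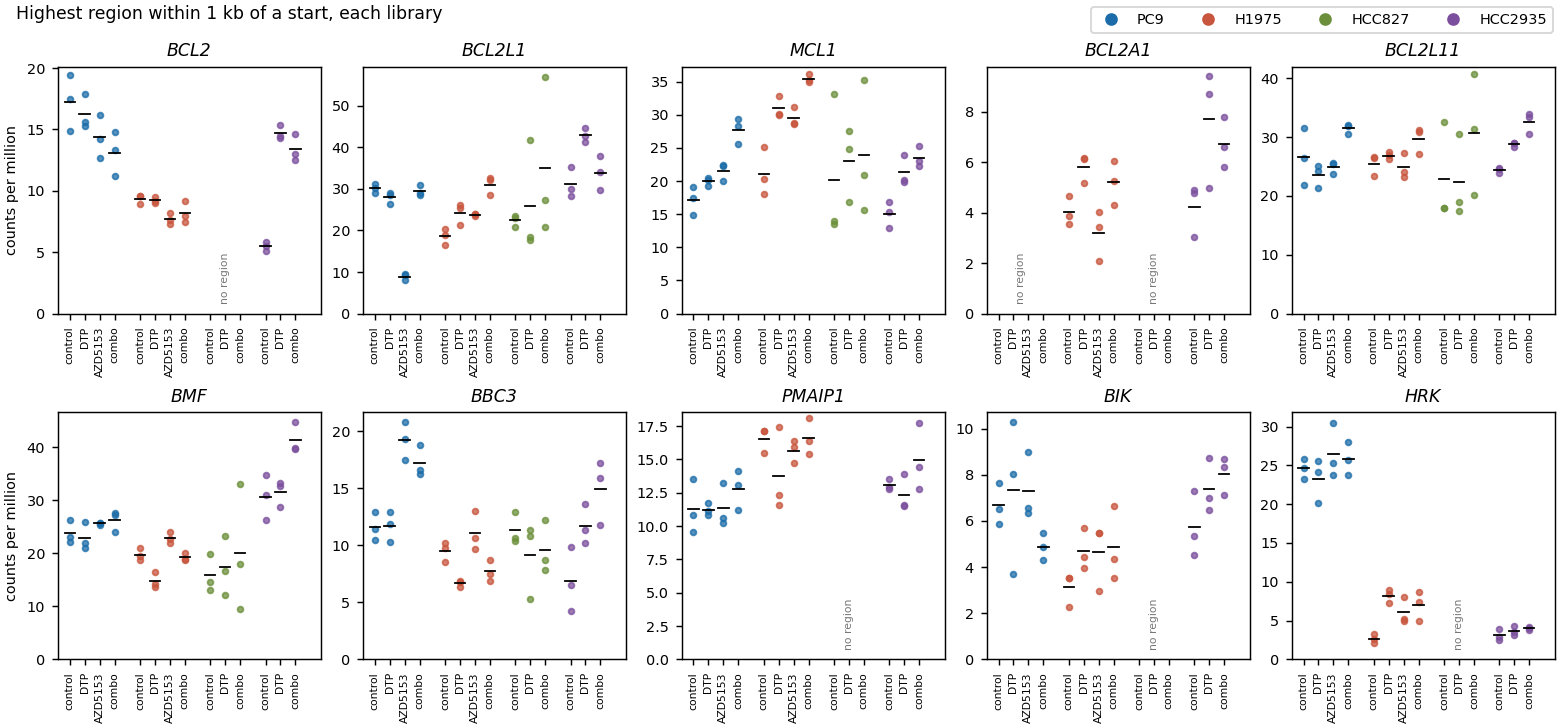
CPM, relative to all counted reads of a library, of the highest region within 1 kb of a start of each gene, 1 panel per gene, with the 14 groups along the horizontal axis, each of the 3 libraries as a point and the group mean as a black line; the region shown can differ between lines. HRK was highest in the 4 PC9 groups, MCL1 and BCL2L11 were open in every group, and "no region" marks genes without an annotated region near a start in that line.

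DTPs were compared with controls to ask which regions differed in cells that had survived osimertinib. In H1975, 37 of 64 regions changed, 11 higher and 26 lower, where 51.8% of all 191202 regions tested changed, 24.8% higher and 27.0% lower. In PC9, 18 of 64 changed, 9 in each direction, where 31.8% of all 126506 changed. In HCC2935, 31 of 73 changed, 22 higher and 9 lower, where 37.4% of all 154179 changed, 18.4% higher and 19.0% lower. HCC827 had 0 calls among 20 regions, where 0.0267% of all 82309 were called. The share of members called was near that of all regions in each line. Here and below, shares of all regions are over the tested regions of the full tables. Members come from the smaller annotated tables, so the sets are unlike and a gap between the shares is only a description. The median log2 change of the members was −0.15 in H1975 beside 0.02 over all regions, −0.06 in PC9 beside 0.02, and 0.20 in HCC2935 beside −0.02. The summed-library test called 27 in H1975 (40.3% of all), 9 in PC9 (19.5%) and 25 in HCC2935 (32.8%). In HCC2935 the medians of 10 Mb windows varied with an SD of 0.334, and with the window medians removed its calls were 16 higher and 15 lower (31.9% of all).

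At BCL2L1, a region 22.8 kb downstream of the internal start closed in DTPs of 3 lines, while other regions of the gene opened or closed. The share of cells in which a region is open and the extent of opening per cell cannot be told apart in such bulk samples. The region is intronic, at chr20:31696154-31696655 (hg38) in H1975. Its CPM in PC9 was 17, 14.3 and 15.4 in controls and 3.5, 4.31 and 2.81 in DTPs. In H1975 it was 24.8, 27.6 and 26.9 against 6.13, 5.59 and 5.03. Every DTP library lay below every control library in both lines, with falls of 2.15 in PC9 (SE 0.194, adjusted p = 3.04e-24) and 2.42 in H1975 (SE 0.118, adjusted p = 6.08e-52), both also called in the summed-library test. In HCC2935 the values were 23.5, 12.4 and 28.0 in controls and 14, 15.7 and 9.95 in DTPs. These groups overlapped, with a fall of 0.78 (SE 0.189, adjusted p = 0.00104; DESeq2 adjusted p = 0.0967). HCC827 had 15.9, 15.6 and 16.5 in controls and 2.71, 2.11 and 9.43 in DTPs, which was not called (adjusted p = 0.467). The change differed between the lines (limma voom, adjusted p = 6.83e-07).

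Some other BCL2L1 regions opened in DTPs. At +40.5 kb, chr20:31678456-31678957, PC9 had 2.26, 2.16 and 2.54 CPM in controls and 9.15, 10.9 and 11.2 in DTPs. The groups did not overlap, and the rise was 2.12 (SE 0.239, adjusted p = 4.07e-16). HCC2935 rose there by 1.05 (adjusted p = 0.000281), from 4.83 to 10.8 CPM in the means, and H1975 by 1.39 (adjusted p = 0.00114), from 0.629 to 1.84. All 3 rises were called in the summed-library test and without any single library. The region 0.7 kb upstream of the internal start rose by 1.14 in PC9 (adjusted p = 0.00137), 1.09 in H1975 (adjusted p = 3.14e-06) and 0.62 in HCC2935 (adjusted p = 0.000994, or 0.177 with window medians removed). At +19.9 kb the rise was 0.66 in PC9 (adjusted p = 0.000186; summed-library adjusted p = 0.0582) and 0.56 in H1975 (adjusted p = 6.03e-08). HCC2935 rose there by 0.35 (adjusted p = 0.0265), a call lost in the summed-library test (adjusted p = 0.203), with window medians removed (adjusted p = 0.963), and without DTP library 3 (adjusted p = 0.0565) or control library 3 (adjusted p = 0.075).

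At the internal start, H1975 rose from 17.3, 20 and 14.8 to 29.6, 26.9 and 30.2 CPM, by 0.56 (SE 0.0917, adjusted p = 3.57e-08), with no overlap. HCC2935 rose by 0.35 (adjusted p = 0.0123), a call lost in the summed-library test (adjusted p = 0.193) and with window medians removed (adjusted p = 0.959). PC9 had mean levels of 30.2 CPM in controls and 28.0 in DTPs. The region at +7.0 kb, annotated in HCC2935 alone, fell there by 0.82 (adjusted p = 0.00455), from 8.14 to 4.96 CPM. Of regions chosen after their values were seen, +14.4 kb fell in H1975 by 0.93 (adjusted p = 2.14e-10), from 12.2 to 7.27 CPM, and +6.3 kb by 1.34 (adjusted p = 1.37e-09), from 5.82 to 2.62. The region at the upstream RefSeq start of BCL2L1, below called the RefSeq start, was chosen in the same way. It fell in H1975 by 0.40 (adjusted p = 0.000579, summed-library adjusted p = 0.135). HCC2935 rose there by 0.54 (adjusted p = 0.00143), from 19.7 to 30.4 CPM, a call lost with window medians removed (adjusted p = 0.301), and the change differed between lines (limma voom, adjusted p = 0.000357). Over all BCL2L1 regions, 5 rose and 4 fell of 12 in H1975, 3 and 1 of 12 in PC9, and 5 and 2 of 14 in HCC2935. The HCC2935 split was 1 and 5 with window medians removed. Of all regions 51.8%, 31.8% and 37.4% were called in the same order, and 31.9% in HCC2935 with window medians removed.

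**Figure D2:**
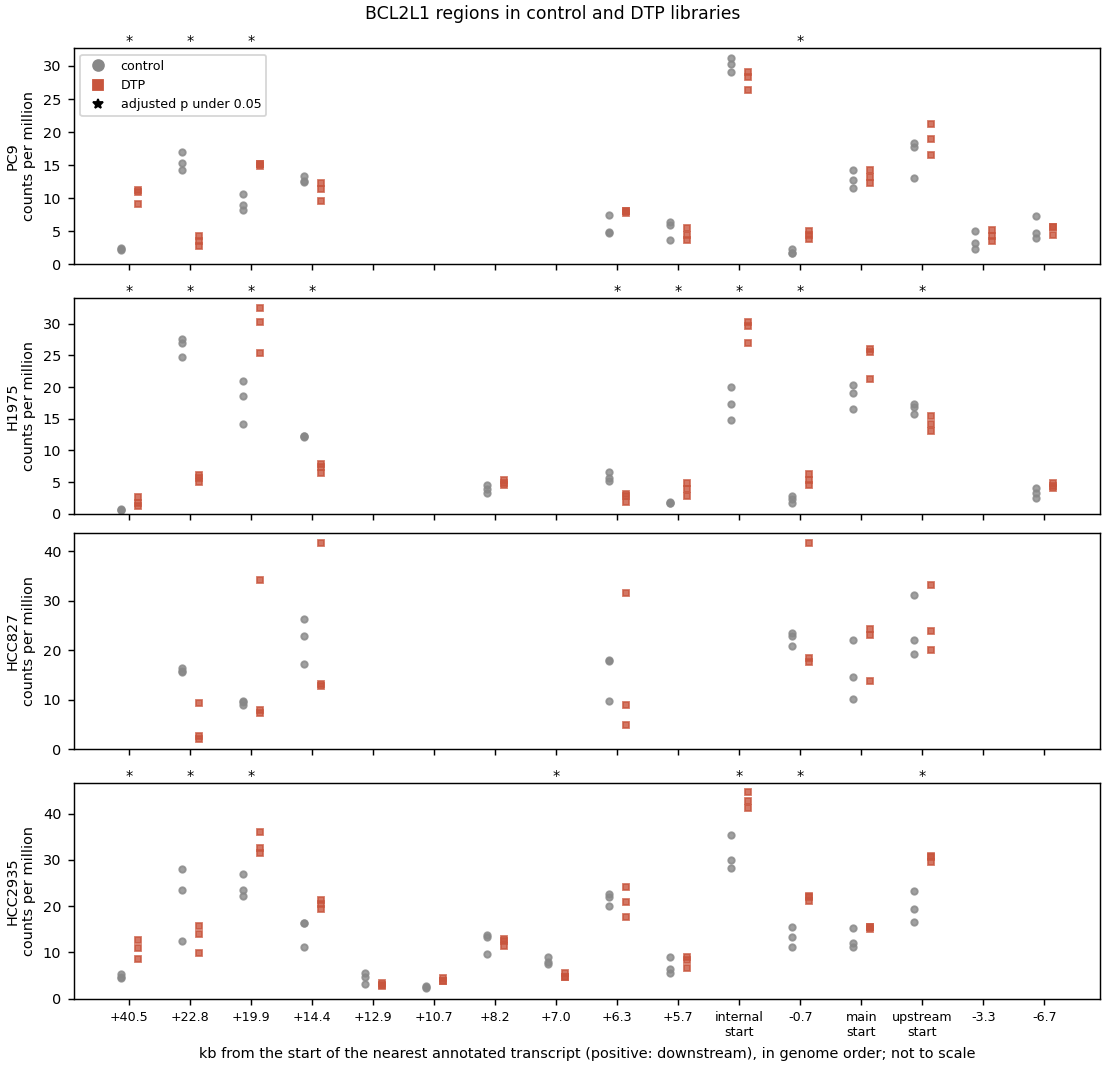
CPM of every BCL2L1 region in controls and DTPs, 1 panel per line, in genome order along the horizontal axis (not to scale), each library as a point, with an asterisk over regions with an adjusted p below 0.05. At +22.8 kb the PC9 and H1975 DTP libraries lie below all control libraries of their line, and at +40.5 kb above them. The label "upstream start" marks the RefSeq start of the text, and "main start" the downstream RefSeq start.

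BCL2 had 1 of 8 regions higher in PC9 DTPs, 1 of 3 in H1975 and 2 of 4 in HCC2935, and 0 lower. Of all regions 31.8%, 51.8% and 37.4% were called in the same order. Its internal start at chr18:63161589-63162090 rose in HCC2935 from 5.83, 5.13 and 5.54 to 14.5, 14.3 and 15.4 CPM. The groups did not overlap, and the change was 1.31 (SE 0.193, adjusted p = 4.32e-07). The same region had mean levels of 7.98 and 8.87 CPM in PC9 controls and DTPs and 9.37 and 9.24 in H1975, and the change differed between lines (limma voom, adjusted p = 5.60e-05). At +62.9 kb PC9 rose by 0.50 (adjusted p = 0.0166; summed-library adjusted p = 0.211), a call lost without DTP library 3 (adjusted p = 0.117) or control library 2 (adjusted p = 0.117). H1975 rose there by 0.50 (adjusted p = 0.0137; summed-library adjusted p = 0.154), a call lost without DTP library 2 (adjusted p = 0.12) or control library 3 (adjusted p = 0.155).

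MCL1 rose at its start in H1975, from 25.1, 20.3 and 18.0 CPM in controls to 32.9, 30.1 and 29.9 in DTPs (change 0.38, SE 0.0869, adjusted p = 6.43e-05; summed-library adjusted p = 0.185). HCC2935 rose by 0.39 (adjusted p = 0.0301), a call lost in the summed-library test (adjusted p = 0.173), with window medians removed (adjusted p = 0.171), and without DTP library 2 (adjusted p = 0.113) or control library 3 (adjusted p = 0.122). PC9 had mean levels of 17.1 and 19.9 CPM, which was not called. BCL2A1, a guardian known as an NF-kB target in blood cells, changed most 38.1 kb upstream in H1975, at chr15:80009298-80009799. Its CPM there was 5.86, 5.2 and 6.16 in controls and 0.721, 0.316 and 0.419 in DTPs. The groups were far apart, with a fall of 3.72 (SE 0.304, adjusted p = 2.16e-25). Of the 4 BCL2A1 regions of H1975, 3 fell and 0 rose, where 51.8% of all regions were called and 27.0% fell. In HCC2935 the BCL2A1 start rose by 0.75 (adjusted p = 0.0186), a call lost with window medians removed (adjusted p = 0.0934) and without DTP library 1 (adjusted p = 0.0868), DTP library 2 (adjusted p = 0.0647) or control library 2 (adjusted p = 0.0942).

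Among the BH3-only genes, BCL2L11 had its largest changes in introns. Its start had mean levels of 25.5 CPM in H1975 controls and 26.9 in DTPs, 26.6 and 23.6 in PC9, and 24.4 and 28.8 in HCC2935, none of them called. Another start region, chosen after its values were seen, fell in PC9 by 0.33 (SE 0.117, adjusted p = 0.0199; summed-library adjusted p = 0.351), a call lost without DTP library 1 (adjusted p = 0.142) or control library 2 (adjusted p = 0.0658). At +36.9 kb, chr2:111160695-111161196, H1975 had 0.382, 0.885 and 1.26 CPM in controls and 6.85, 7.07 and 7.33 in DTPs. Every DTP library was above every control library, with the largest rise among the H1975 members, 2.86 (SE 0.256, adjusted p = 5.05e-22). PC9 rose there from 3.26, 1.77 and 0.587 to 3.5, 4.72 and 4.42 CPM, by 1.22 (SE 0.326, adjusted p = 0.00132), a call lost without control library 3 (adjusted p = 0.094). At +17 kb, chr2:111140762-111141263, H1975 fell from 5.09, 5.75 and 5.82 to 1.32, 2.0 and 1.47 CPM (−1.95, SE 0.231, adjusted p = 4.34e-14). HCC2935 fell there from 6.92, 4.43 and 2.77 to 0.488, 0.858 and 0.332 CPM (−3.14, SE 0.437, adjusted p = 1.38e-07). Neither line showed overlap. The neighbouring region at +15.8 kb fell by 0.68 in H1975 (adjusted p = 0.000925) and 0.84 in HCC2935 (adjusted p = 0.00104), and PC9 and HCC827 had no annotated region at either place.

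BMF, a BH3-only protein tied to the cytoskeleton, fell at some regions in 2 lines and rose at some in the third. Of its regions, 4 of 9 fell in PC9 and 4 of 10 in H1975 with 0 higher, while 7 of 16 rose in HCC2935 with 0 lower. The shares called were 44.4%, 40.0% and 43.8%, beside 31.8%, 51.8% and 37.4% of all regions. The summed-library test called 2, 3 and 7. At the second start, whose upstream sequence is given above, H1975 had 18.2, 21.2 and 15.9 CPM in controls and 6.73, 6.96 and 7.02 in DTPs. The groups did not overlap, with a fall of 1.59 (SE 0.124, adjusted p = 2.60e-27). PC9 fell there by 0.55 (adjusted p = 0.000555; summed-library adjusted p = 0.0976), from 17.7 to 12.3 CPM, and HCC2935 had 21.4 and 18.8, which was not called. At +0.9 kb the fall was 0.67 in PC9 (adjusted p = 0.000521; summed-library adjusted p = 0.0523) and 0.69 in H1975 (adjusted p = 3.46e-06). The main start fell by 0.58 in H1975 (adjusted p = 1.5e-07), from 19.8 to 14.8 CPM, and was not called in PC9 or HCC2935. The changes at +0.9 kb and at the main start differed between lines (limma voom, adjusted p = 0.0141 and 0.0121). In PC9 the deepest BMF fall was at +21.0 kb, by 1.24 (adjusted p = 0.000612), from 4.29 to 1.88 CPM.

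The BMF regions that rose in HCC2935 lay away from the starts. At −9.5 kb, chr15:40118415-40118916, the CPM was 0.546, 1.17 and 0.504 in controls and 7.97, 7.43 and 5.14 in DTPs. This was the largest rise among the HCC2935 members, 3.10 (SE 0.447, adjusted p = 2.84e-07), with no overlap. At +24.0 kb the rise was 2.43 (SE 0.457, adjusted p = 3.59e-05), from 0.573 to 3.45 CPM, and at +16.7 kb, annotated as 3′ UTR, 1.82 (SE 0.382, adjusted p = 0.000172), from 1.05 to 4.15. With window medians removed, 7 BMF regions were higher and 3 lower in HCC2935.

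PMAIP1, a BH3-only gene whose product binds MCL1, fell at more regions than it rose in H1975 and HCC2935. In H1975, 9 of 12 regions fell and 1 rose, in HCC2935, 5 of 12 fell and 0 rose, and in PC9, 2 fell and 2 rose of 11. Of all regions 51.8% were called in H1975, 37.4% in HCC2935 and 31.8% in PC9. At +53.0 kb PC9 had 14.3, 6.08 and 9.78 CPM in controls and 2.34, 2.67 and 1.61 in DTPs (−2.16, SE 0.247, adjusted p = 1.13e-15). The fall was 1.66 in H1975 (adjusted p = 6.92e-15), from 7.33 to 2.63 CPM, and 1.06 in HCC2935 (adjusted p = 7.30e-05), from 11.4 to 5.83. In these 3 lines the groups did not overlap and the calls were made in the summed-library test too. At −18.0 kb, chr18:59881541-59882042, H1975 fell from 7.0, 6.41 and 5.82 to 0.601, 0.738 and 0.524 CPM (−3.50, SE 0.279, adjusted p = 2.23e-26). HCC2935 fell there from 16.2, 20.1 and 14.1 to 6.67, 5.86 and 5.14 CPM (−1.61, SE 0.213, adjusted p = 4.43e-08). PC9 was low in both groups, with means of 1.09 and 2.08 CPM, and the change differed between lines (limma voom, adjusted p = 7.87e-07). The +16.8 kb region fell by 1.57 in H1975 (adjusted p = 2.44e-20) and 0.90 in HCC2935 (adjusted p = 0.00162), the latter lost without DTP library 3 (adjusted p = 0.0571).

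The PMAIP1 start had mean levels of 11.3 and 11.2 CPM in PC9 and 13 and 12.3 in HCC2935, neither called, and fell by 0.43 in H1975 with overlapping libraries (adjusted p = 0.000326; summed-library adjusted p = 0.106). At +0.7 kb H1975 rose by 0.63 (adjusted p = 0.000484; summed-library adjusted p = 0.0506). PC9 rose there by 0.82 (adjusted p = 0.0129; summed-library adjusted p = 0.0829), a call lost without DTP library 3 (adjusted p = 0.197), control library 1 (adjusted p = 0.084) or control library 3 (adjusted p = 0.0924). At −0.5 kb, a region chosen after its values were seen, HCC2935 fell by 0.77 (adjusted p = 0.0279; summed-library adjusted p = 0.0618), from 4.94 to 3.14 CPM, a call lost without DTP library 2 (adjusted p = 0.134), DTP library 3 (adjusted p = 0.0934), control library 1 (adjusted p = 0.157) or control library 2 (adjusted p = 0.081). At +4.7 kb PC9 fell by 1.03 (adjusted p = 0.00418), lost without DTP library 1 (adjusted p = 0.0641). H1975 fell there by 0.59 (adjusted p = 0.00439; summed-library adjusted p = 0.0646), lost without control library 2 (adjusted p = 0.0562).

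BBC3, the p53 target PUMA, changed near its starts and upstream. At −6.8 kb PC9 rose from 1.5, 2.75 and 2.15 to 6.04, 6.36 and 3.01 CPM (1.20, SE 0.291, adjusted p = 0.000336). No DTP library overlapped the controls. The region at the RefSeq start, whose upstream sequence is given above, was chosen after its values were seen. It fell in H1975 from 9.8, 7.74 and 9.13 to 3.48, 2.74 and 4.29 CPM (−1.5, SE 0.17, adjusted p = 3.49e-15), and had means of 8.09 and 8.08 in PC9. At −0.6 kb H1975 fell by 0.68 (adjusted p = 1.73e-05), from 9.49 to 6.66 CPM, and the change differed between lines (limma voom, adjusted p = 0.0428). The −11.3 kb region fell by 0.41 in H1975 (adjusted p = 9.57e-05; summed-library adjusted p = 0.115). PC9 fell there by 0.42 (adjusted p = 0.00191; summed-library adjusted p = 0.202), lost without DTP library 3 (adjusted p = 0.0605). In HCC2935 an internal start rose by 0.61 (adjusted p = 0.0214; summed-library adjusted p = 0.058), lost without DTP library 3 (adjusted p = 0.0619) or control library 3 (adjusted p = 0.151).

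BIK rose at 3 of 5 regions in HCC2935 DTPs and HRK at 2 of 3 in H1975 DTPs, with 3 and 1 called in the summed-library test. Of all regions 18.4% rose in HCC2935 and 24.8% in H1975. At −10.1 kb of BIK, HCC2935 rose from 4.74, 2.1 and 6.55 to 17.1, 14.6 and 16.4 CPM (1.74, SE 0.224, adjusted p = 2.31e-08). PC9 rose there by 0.58 (adjusted p = 0.00113; summed-library adjusted p = 0.108), from 9.65 to 15 CPM, and the change differed over the lines (limma voom, adjusted p = 0.000454). At −6.1 kb of BIK, a region chosen after its values were seen, H1975 fell by 1.82 (adjusted p = 1.12e-15), from 6.83 to 2.15 CPM. HCC2935 rose there by 0.67 (adjusted p = 0.0105), a call lost without DTP library 1 (adjusted p = 0.0637) or control library 2 (adjusted p = 0.0708). The HRK internal start rose in H1975 from 2.67, 2.1 and 3.31 to 7.21, 8.97 and 8.38 CPM (1.44, SE 0.191, adjusted p = 1.08e-11). The start of HRK rose by 0.52 (adjusted p = 0.0428; summed-library adjusted p = 0.189), a call lost without AZD5153 library 1 (adjusted p = 0.0637), AZD5153 library 2 (adjusted p = 0.0607), AZD5153 library 3 (adjusted p = 0.0608), DTP library 2 (adjusted p = 0.0681), DTP library 3 (adjusted p = 0.139), combination library 3 (adjusted p = 0.0626), control library 1 (adjusted p = 0.0722) or control library 3 (adjusted p = 0.221). The BIK start rose in HCC2935 by 0.79 (adjusted p = 0.0155), a call lost without DTP library 2 (adjusted p = 0.0742) or control library 2 (adjusted p = 0.146). It was not the highest BIK region near a start in HCC2935. That region, at +0.4 kb, was not called (log2 change 0.245). In PC9, where the HRK internal start was far more open, it had means of 24.6 and 23.3 CPM. There 0 of 4 HRK regions were called, beside 31.8% of all regions.

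Of the 67 loci seen in more than 1 line, 19 (28.4%) were called in the same direction in at least 2 lines, 10 lower and 9 higher, where 27.5% of all 64576 such loci of the annotated regions were. At 4 loci (5.97%, beside 7.78% of all) the calls of 2 lines went opposite ways: BCL2L1 at the RefSeq start and BIK −6.1 kb, higher in HCC2935 and lower in H1975, BMF +24.0 kb, higher in HCC2935 and lower in PC9, and PMAIP1 −52.5 kb, higher in PC9 and lower in H1975. Both shares of the members were near those of all regions. At PMAIP1 −52.5 kb the PC9 rise was 0.89 (adjusted p = 0.049; summed-library adjusted p = 0.132), lost without AZD5153 library 1 (adjusted p = 0.0505), AZD5153 library 2 (adjusted p = 0.0513), AZD5153 library 3 (adjusted p = 0.0502), DTP library 1 (adjusted p = 0.189), DTP library 2 (adjusted p = 0.133) or control library 1 (adjusted p = 0.301). Over the 60 member regions matched in all 4 lines, the DTP change differed between lines at 25, where 43.0% of all 81122 matched regions tested did (limma voom, adjusted p below 0.05). The lines share no libraries, so each change is measured against controls of its own.

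**Figure D3:**
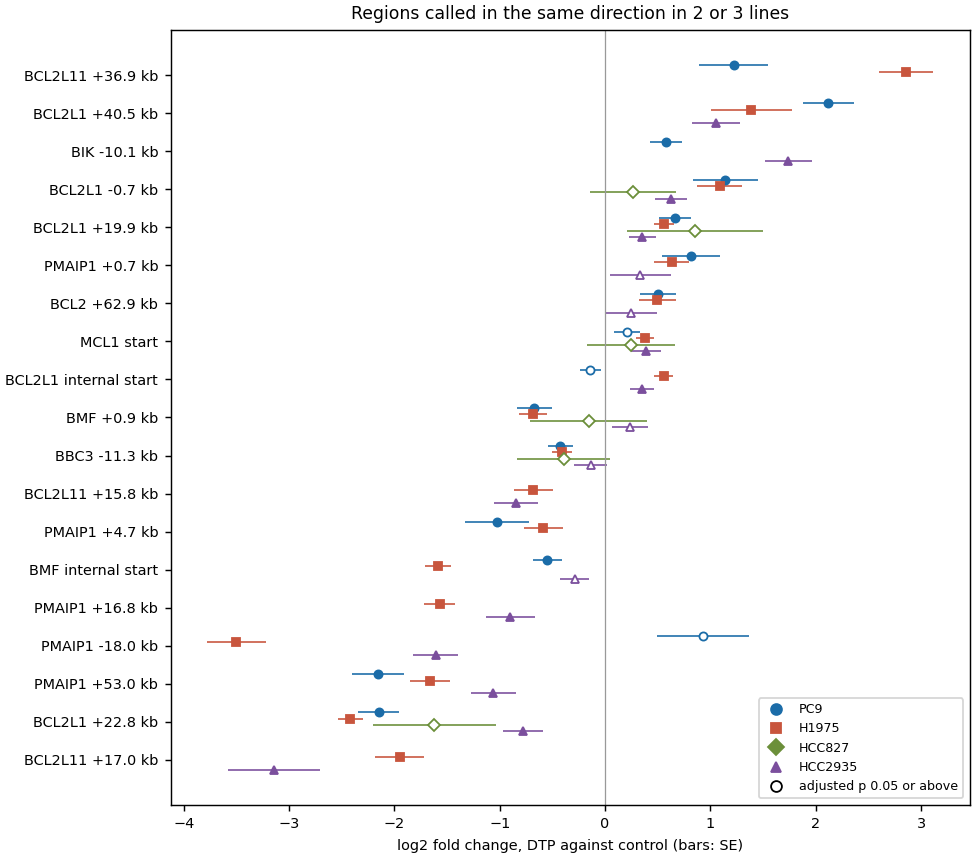
Log2 change of DTP over control with its SE (bars) at the 19 loci called in the same direction in at least 2 lines, 1 colour per line, with filled points for an adjusted p below 0.05 and open points otherwise. BCL2L1 +22.8 kb lies at −2.42 in H1975 and −2.15 in PC9, and BCL2L11 +17 kb at −3.14 in HCC2935.

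HCC827 gave 0 calls among its 20 regions in DTPs by edgeR and by DESeq2, with 2 at an unadjusted p below 0.05. Its same-numbered libraries correlated across groups, but those numbered 3 stood apart, so pairing of the others is not shown. With the number as a block 1 region was called (3.59% of all regions), BCL2L1 +22.8 kb, which fell by 1.81 (adjusted p = 0.00966). Without the libraries numbered 3, an alternative chosen after seeing the data, the same region was the 1 call (1.59% of all regions), with a fall of 2.58 (SE 0.416, adjusted p = 0.000693). The combination against DTPs had 0 calls by edgeR and DESeq2, with 0 at an unadjusted p below 0.05, beside 0.0% of all regions.

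AZD5153 alone was compared with controls in PC9 and H1975 to show what it did without osimertinib. In H1975, 48 of 64 regions changed, 21 higher and 27 lower, where 58.1% of all regions did, and in PC9, 15 of 64, 11 higher and 4 lower, where 25.8% did. The summed-library test called 37 in H1975 (48.3% of all) and 7 in PC9 (14.1%). With library size scaling the PC9 split was 15 higher and 3 lower. In H1975, of 25 regions within 1 kb of a start 10 rose and 4 fell, with a median of 0.19. Of 39 others 11 rose and 23 fell, with a median of −0.62. Shares of all regions by direction or by distance to a start are not given here, so this split only describes the members. Window medians in H1975 had an SD of 0.43, and with them removed the calls were 22 higher and 26 lower (53.5% of all).

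The internal start of BCL2L1 fell with AZD5153 in both lines. In PC9 the CPM was 30.3, 31.2 and 29.1 in controls and 8.0, 9.26 and 9.44 with AZD5153 (−1.84, SE 0.129, adjusted p = 2.48e-38). In H1975 it was 17.3, 20 and 14.8 against 3.09, 2.9 and 4.13 (−2.49, SE 0.152, adjusted p = 4.71e-39). Neither line showed overlap, and both falls were called in the summed-library test. The region at the downstream RefSeq start of BCL2L1 had means of 18.6 and 23.8 CPM in H1975 and 12.9 and 16.8 in PC9, neither called. The region at the RefSeq start, chosen after its values were seen, rose in H1975 by 0.86 (adjusted p = 1.80e-17), from 16.7 to 33.8 CPM, and was not called in PC9. The +19.9 kb region fell by 1.10 in H1975 (adjusted p = 1.81e-15), from 17.9 to 9.05 CPM, and had 9.28 and 11.2 in PC9. The +22.8 kb region that closed in DTPs had 15.6 and 16.9 CPM in PC9 and fell by 0.53 in H1975 (adjusted p = 9.59e-08), from 26.5 to 20.3.

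Of the other guardians, MCL1 rose in H1975 at all 3 of its regions, at the start by 0.32 (adjusted p = 0.000989), from 21.2 to 29.5 CPM. That call was lost in the summed-library test (adjusted p = 0.251), with window medians removed (adjusted p = 0.549) and without control library 3 (adjusted p = 0.163). BCL2A1 fell at 3 of 4 regions, at −38.1 kb by 1.97 (adjusted p = 1.46e-13), from 5.74 to 1.57 CPM. These counts stand beside the 58.1% of all H1975 regions that were called. BCL2 +62.9 kb rose by 0.47 (adjusted p = 0.0217; summed-library adjusted p = 0.164), lost without AZD5153 library 3 (adjusted p = 0.06) or control library 3 (adjusted p = 0.268). In PC9, of regions chosen after their values were seen, MCL1 +0.5 kb rose by 1.05 (SE 0.293, adjusted p = 0.00265), from 2.24 to 4.81 CPM. A BCL2 region at chr18:63320002-63320503 fell by 0.34 with overlapping libraries (adjusted p = 0.042; summed-library adjusted p = 0.393; 0.258 with window medians removed), lost without AZD5153 library 1 (adjusted p = 0.118), AZD5153 library 3 (adjusted p = 0.23), DTP library 3 (adjusted p = 0.0528), combination library 1 (adjusted p = 0.0523), combination library 2 (adjusted p = 0.0502), control library 1 (adjusted p = 0.0954) or control library 2 (adjusted p = 0.319).

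At the BH3-only genes, the deepest falls with AZD5153 were in H1975. The second start of BMF went from 18.2, 21.2 and 15.9 to 2.26, 1.77 and 2.33 CPM (−3.24, SE 0.167, adjusted p = 1.78e-48) and had means of 17.7 and 19.7 in PC9, which was not called. PMAIP1 fell at 8 of 12 regions and rose at 1, where 58.1% of all H1975 regions were called. At +23.1 kb its CPM was 11.5, 12.4 and 11.5 in controls and 2.26, 1.94 and 2.54 with AZD5153 (−2.52, SE 0.179, adjusted p = 1.59e-31), while PC9 had means of 9.03 and 11.1. BCL2L11 +17 kb fell by 2.68 (SE 0.271, adjusted p = 2.24e-18), from 5.55 to 0.902 CPM. HRK rose at all 3 of its H1975 regions, at the start from 2.55, 2.88 and 2.05 to 8.91, 10.5 and 10.1 CPM (1.81, SE 0.186, adjusted p = 6.43e-18). None of the 4 HRK regions of PC9 was called, beside 25.8% of all its regions.

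In PC9 the largest rises were at PMAIP1 and BBC3. PMAIP1 −18.0 kb went from 1.5, 1.57 and 0.196 to 6.2, 6.75 and 5.01 CPM (2.40, SE 0.336, adjusted p = 1.19e-10), and in H1975 it fell by 2.2 (adjusted p = 1.30e-16). PMAIP1 −52.5 kb rose in PC9 by 1.5 (adjusted p = 5.80e-05), from 1.47 to 4.67 CPM, and +53.0 kb fell by 0.96 (adjusted p = 2.33e-05), from 10 to 5.26. BBC3 rose at 4 of its 7 PC9 regions and fell at 0, where 25.8% of all PC9 regions were called. The rise was 1.30 at −6.8 kb (SE 0.282, adjusted p = 6.07e-05) and, at the RefSeq start, 1.20 (SE 0.151, adjusted p = 5.39e-13), from 8.09 to 19.3 CPM. BMF +2.2 kb fell by 0.47 in PC9 (adjusted p = 0.000437; summed-library adjusted p = 0.178). In H1975, BCL2L11 +36.9 kb rose by 1.59 (adjusted p = 6.87e-06), from 0.841 to 2.84 CPM, and BCL2L1 +5.7 kb by 1.47 (adjusted p = 9.77e-09), from 1.76 to 5.52. The DTP and AZD5153 comparisons share their control libraries.

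**Figure D4:**
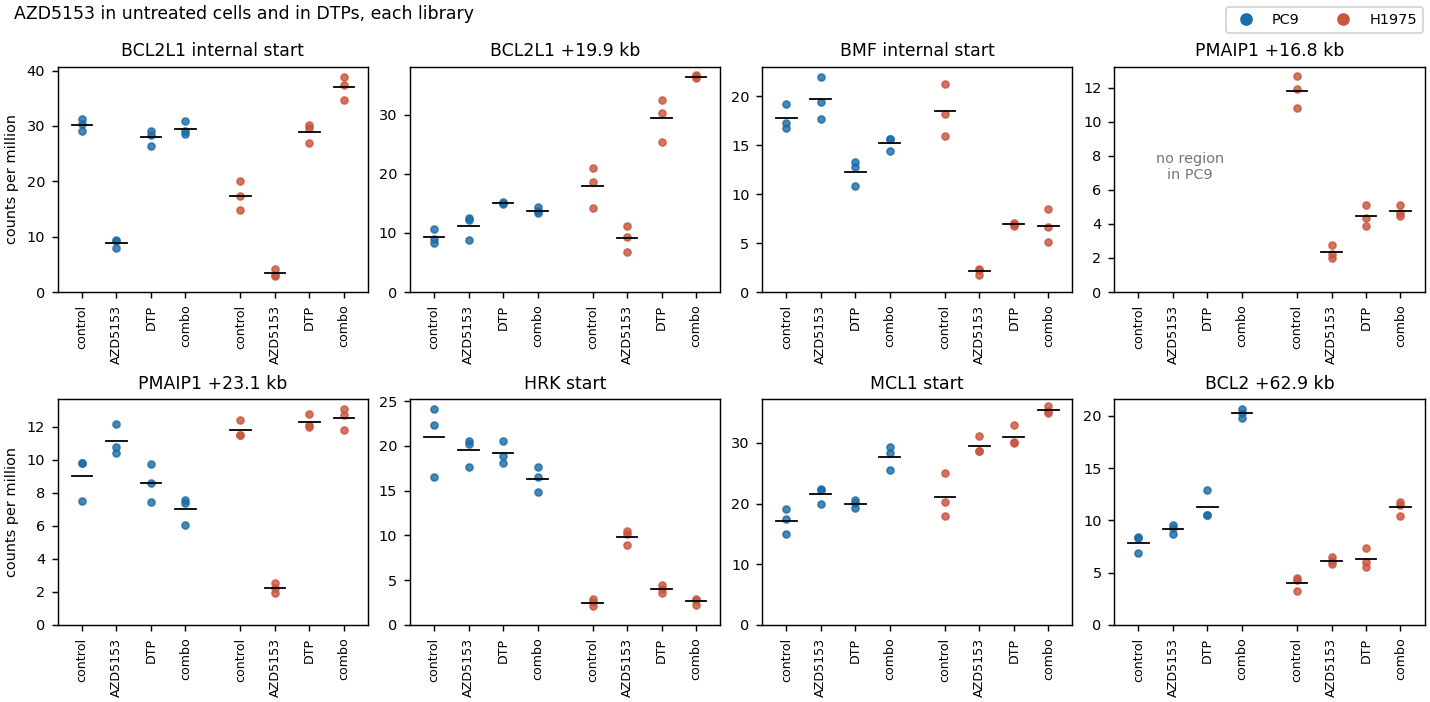
CPM of 8 regions in the control, DTP, AZD5153 and combination groups of PC9 and H1975, each library as a point and the group mean as a line. At the BCL2L1 internal start the AZD5153 libraries of both lines lie below all libraries of the other groups of that line, and at the HRK start of H1975 they lie above them.

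The combination was compared with DTPs to show how 3 days of AZD5153 after 21 days of osimertinib differed from 24 days of osimertinib. Whether osimertinib was stopped for those 3 days is not known. An effect of AZD5153 therefore cannot be told apart here from one of stopping osimertinib. In H1975, 21 of 64 regions changed, 20 higher and 1 lower, where 21.0% of all regions did (11.5% higher, 9.5% lower), and in PC9, 21 of 64, 13 higher and 8 lower, where 22.4% did. The summed-library test called 9 in H1975 (6.05% of all) and 6 in PC9 (8.15%). In H1975 BCL2L1 rose at 8 of 12 regions and fell at 1, and BMF rose at 5 of 10 and fell at 0. BCL2L1 +40.5 kb went from 1.2, 2.64 and 1.68 to 5.36, 4.42 and 4.87 CPM (1.46, SE 0.23, adjusted p = 8.67e-08). BMF +24.0 kb rose by 1.43 (adjusted p = 1.24e-07), from 1.9 to 4.79 CPM, and BCL2L1 −0.7 kb by 1.12 (adjusted p = 2.38e-11), from 5.41 to 11.3. All 3 were called in the summed-library test. The 1 fall was BCL2L1 +8.2 kb, by 0.77 (adjusted p = 0.00259; summed-library adjusted p = 0.0948), from 4.93 to 2.74 CPM.

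BCL2 +62.9 kb opened in the combination in both lines. In PC9 it went from 10.5, 10.5 and 12.9 to 20.3, 19.8 and 20.7 CPM (0.85, SE 0.136, adjusted p = 4.17e-08) and in H1975 from 5.53, 7.38 and 5.97 to 10.4, 11.5 and 11.8 (0.91, SE 0.137, adjusted p = 2.06e-08). Neither line showed overlap, and both rises were called in the summed-library test. MCL1 rose at its start by 0.48 in PC9 (adjusted p = 0.00022; summed-library adjusted p = 0.196), from 19.9 to 27.7 CPM, and by 0.27 in H1975 (adjusted p = 0.00419; summed-library adjusted p = 0.514), from 30.9 to 35.4. In PC9, BMF +12.4 kb rose by 1.10 (adjusted p = 6.74e-06), from 4.4 to 9.4 CPM, and BBC3 −6.8 kb by 0.86 (adjusted p = 0.000338), from 5.14 to 9.31. PMAIP1 −18.0 kb rose by 0.94 with overlapping libraries (adjusted p = 0.0173; summed-library adjusted p = 0.0953), lost without DTP library 1 (adjusted p = 0.104), DTP library 3 (adjusted p = 0.089) or combination library 1 (adjusted p = 0.35). The deepest PC9 falls were BCL2L11 +36.9 kb by 1.11 (adjusted p = 0.00438) and a BCL2 start region by 1.03 (adjusted p = 0.00383), the latter lost without combination library 1 (adjusted p = 0.0955). BCL2L1 +22.8 kb fell by a further 0.97 (adjusted p = 0.021; summed-library adjusted p = 0.107), lost without DTP library 2 (adjusted p = 0.13), combination library 1 (adjusted p = 0.0959) or combination library 2 (adjusted p = 0.171).

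Whether AZD5153 did the same after osimertinib as without it was tested by the difference between its effects. The effect after osimertinib is the combination against DTPs, in which stopping osimertinib cannot be told apart. In H1975, 38 of 64 regions differed, 29 with a higher effect after osimertinib and 9 with a lower one, where 42.5% of all regions did (24.4% and 18.2%), and in PC9, 11 of 64, 3 and 8, where 13.8% did. The summed-library test called 31 in H1975 (31.0% of all) and 1 in PC9 (4.84%). The PC9 count was 6 without control library 3 or AZD5153 library 2, and 7 without DTP library 2 or combination library 2. The H1975 split was 25 and 13 with library size scaling and 26 and 14 over annotated regions alone. At the BCL2L1 internal start the combination libraries had 30.8, 29.1 and 28.5 CPM in PC9 and 37.3, 34.6 and 38.9 in H1975, beside means of 8.9 and 3.38 with AZD5153 alone. The difference in effect was 1.93 in PC9 (SE 0.165, adjusted p = 8.34e-26) and 2.92 in H1975 (SE 0.171, adjusted p = 1.28e-40), both also called in the summed-library test. In H1975 it was 3.29 at the second start of BMF (SE 0.242, adjusted p = 1.54e-29), where DTPs and the combination had means of 6.9 and 6.73 CPM, and 2.62 at PMAIP1 +23.1 kb (SE 0.217, adjusted p = 1.04e-24), with 12.3 and 12.5. The HRK start went the other way (−2.34, SE 0.288, adjusted p = 5.26e-13), with 4.0 and 2.63 CPM beside 9.82 with AZD5153 alone.

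In HCC2935 the combination changed 17 of 73 regions against DTPs, 7 higher and 10 lower, where 8.39% of all regions were called. That share is over the full table, a set unlike the members, so no excess at the members can be read from it. The summed-library test called 10 (5.57% of all), and the count was 11 without DTP library 2 or combination library 2. BMF rose at 6 of 16 regions and fell at 0, with 1 called in the summed-library test and 1, at +6.9 kb, called without any single library. The other 5 calls were each lost without combination library 2. In the same comparison BCL2L11, BCL2L1, BCL2A1 and PMAIP1 each fell at 2. The deepest fall was in a BCL2 intron at −23.9 kb, chr18:63185805-63186306, from 6.83, 7.15 and 5.97 to 1.46, 1.36 and 1.21 CPM (−2.26, SE 0.289, adjusted p = 3.73e-07). The controls had 3.28, 3.73 and 4.28, between the other groups. BCL2L11 fell by 2.01 at +31.9 kb (SE 0.373, adjusted p = 0.000242), from 4.56 to 1.13 CPM, and by 1.34 at +15.8 kb (SE 0.25, adjusted p = 0.000256), from 7.21 to 2.87. BCL2L1 +7.0 kb, which fell in DTPs, rose by 1.08 (adjusted p = 0.000537), from 4.96 to 10.1 CPM, and +22.8 kb fell by a further 0.92 (adjusted p = 0.00333; DESeq2 adjusted p = 0.137). BMF +24.0 kb rose by 0.87 (adjusted p = 0.0256; summed-library adjusted p = 0.0734), lost without DTP library 2 (adjusted p = 0.124), DTP library 3 (adjusted p = 0.119), combination library 2 (adjusted p = 0.0976) or combination library 3 (adjusted p = 0.15). BMF +20.4 kb rose by 0.84 (adjusted p = 0.0175; summed-library adjusted p = 0.0556), lost without DTP library 2 (adjusted p = 0.201), combination library 1 (adjusted p = 0.0892) or combination library 2 (adjusted p = 0.0944).

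Other apoptosis genes were read at their highest region within 1 kb of a start, and their counts stand beside the 31.8% in PC9, 51.8% in H1975 and 37.4% in HCC2935 of all regions that were called in DTPs. Of the other BCL2 family genes, 3 rose and 0 fell of 8 measured in PC9 DTPs, 3 and 2 of 8 in H1975, and 3 and 0 of 9 in HCC2935. BCL2L14 rose by 1.56 in PC9 (adjusted p = 5.30e-05), from 1.42 ± 0.0769 to 4.26 ± 0.692 CPM (SD, n = 3), and by 1.53 in HCC2935 (adjusted p = 0.000858), from 1.37 ± 0.322 to 4.3 ± 0.645. Of the inhibitors of apoptosis, 2 rose and 1 fell of 6 in PC9, 1 and 2 of 6 in H1975, and 3 and 0 of 6 in HCC2935. CFLAR, which blocks caspase-8 at death receptors, rose by 0.59 in PC9 (adjusted p = 0.00296; summed-library adjusted p = 0.118), 0.61 in H1975 (adjusted p = 2.29e-07) and 0.55 in HCC2935 (adjusted p = 0.00905; summed-library adjusted p = 0.0527, and 0.0549 with window medians removed). Its H1975 level went from 11.1 ± 0.614 to 19.2 ± 0.831 CPM. Of the apoptosome and caspase genes, 1 rose and 1 fell of 11 in PC9, 3 and 3 of 12 in H1975, and 1 and 1 of 10 in HCC2935.

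Of the death receptor genes, 1 rose and 0 fell of 6 in PC9 DTPs, 2 and 1 of 5 in H1975, and 0 and 2 of 5 in HCC2935. FAS, the receptor of FAS ligand, rose by 0.70 in H1975 (adjusted p = 1.17e-10), from 13.6 ± 1.1 to 25.0 ± 1.76 CPM, and fell by 0.72 in HCC2935 (adjusted p = 0.00107), from 15.4 ± 0.777 to 10.1 ± 2.08. Of the transcriptional regulators known to act on the members, 0 rose and 0 fell of 9 in PC9, 3 and 1 of 9 in H1975, and 1 and 1 of 10 in HCC2935. In HCC827, 0 genes of these 5 lists were called by edgeR. With AZD5153 alone in H1975, 6 of 8 other BCL2 family genes rose and 1 fell, 4 of them called in the summed-library test, where 58.1% of all regions were called. BAD, a BH3-only gene whose product growth factor kinases hold inactive, rose there by 1.86 (SE 0.161, adjusted p = 2.42e-23), from 3.32 ± 0.653 to 13.7 ± 1.4 CPM, and BAK1, a pore former, by 1.14 (SE 0.112, adjusted p = 3.73e-19), from 9.54 ± 1.7 to 23.3 ± 0.729. In PC9, 0 of 8 rose and 0 fell.

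In every group but HCC827 DTPs, most member regions had a peak in all 3 libraries in the authors' files. The peaks come from the same libraries as the counts and are no separate support. In PC9, 51 of 64 regions had a peak in all 3 control libraries, 58 in all DTP libraries, 64 with AZD5153 and 52 in the combination. The H1975 numbers were 56, 61, 56 and 60 of 64. For control, DTP and combination they were 57, 60 and 60 of 73 in HCC2935 and 18, 10 and 13 of 20 in HCC827. Peak calls depend on depth, so these counts are a description.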

How the data were processed

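Accessible chromatin was profiled in 42 libraries of 4 lines, in 14 groups of 3. The authors deposited raw counts of reads per region for each line, a full table and a smaller annotated one with a nearest-gene symbol, and peak calls per library with their −log10 q-value. The submitters' processing notes name BWA 0.7.17, SAMtools 1.9, deepTools 3.4, MACS2 2.2.6, featureCounts 2.0.0, ChIPseeker 1.29.1 and hg38. How the regions were merged and filtered is not stated in any source used here.

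Counts of the full table of each line were fitted with edgeR 4.0.16 (R 4.3.3; filterByExpr, TMM scaling, quasi-likelihood test, all groups of a line in 1 fit), with Benjamini-Hochberg adjustment over all regions tested and a threshold of 0.05. Change between lines was tested with limma 3.58.1 (voom with sample weights) over regions that overlapped by at least 50% in all 4 lines. A prior count of 2 was used for log2 CPM in the window medians and in the correlations between libraries. Alternatives were DESeq2 1.42.0, its size factors, library size alone, no filter on low counts, the annotated regions alone, 10 Mb window medians removed, summed libraries, the replicate number as a block, and each library left out. The scripts were tested on simulated data. Same-numbered libraries of HCC827 deviated together (r from 0.261 to 0.828). Some libraries of that line stood apart from the rest, so these correlations do not show pairing of the rest. The correlations ran from −0.0098 to 0.0126 in PC9, from −0.0623 to 0.0151 in H1975 and from −0.0739 to 0.206 in HCC2935. Depth was 3989287 to 5193390 reads per library in PC9, 6200672 to 10062505 in H1975, 1724680 to 4242868 in HCC827, and 3968690 to 8066287 in HCC2935.

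Values are given for the highest region within 1 kb of a start of each gene and line, for the up to 3 called regions with the largest rise and fall of each comparison at a mean of at least 1 CPM, and for loci called in the same direction in DTPs of at least 2 lines. The share of all annotated loci called in more than 1 line came from the same edgeR fits, with regions joined across lines as for the members. The members, the gene lists and these rules were chosen with earlier results of these data known. Figures were drawn with matplotlib 3.10.9.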

Additional observations from a re-analysis of the deposited data

Results flagged for a closer look

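These results were singled out because an effect differed between groups in a test of the difference itself. The change of DTPs against controls differed across the 4 lines (limma voom, Benjamini-Hochberg over 81122 matched regions) at 15 regions named in the text or by its rule. At BCL2L1 the adjusted p was 6.83e-07 at +22.8 kb, 0.000561 at the internal start, 0.00467 at −0.7 kb, 0.00769 at +5.7 kb, 0.0139 at +7.0 kb and 0.0169 at +40.5 kb. At PMAIP1 it was 7.87e-07 at −18.0 kb, 0.00155 at −52.5 kb and 0.00848 at +16.8 kb. At BMF it was 0.00483 at +21.0 kb, 0.0121 at the main start and 0.0141 at +0.9 kb. It was 5.60e-05 at the internal start of BCL2, 0.000454 at −10.1 kb of BIK and 0.0428 at −0.6 kb of BBC3.

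The difference in AZD5153 effect is the change from DTPs to the combination minus that from controls to AZD5153 alone (log2, edgeR). In PC9 this difference was called at an adjusted p below 0.05 at 8 such regions. It was 1.93 at the internal start of BCL2L1, 0.70 at BCL2 +62.9 kb and 0.62 at the start of BCL2L11. It was −1.59 at BCL2L11 +36.9 kb, −1.02 at BCL2L1 +22.8 kb, −1.45 at PMAIP1 −18.0 kb, −1.39 at PMAIP1 −52.5 kb and −1.40 at PMAIP1 +4.7 kb. The summed-library test called 1 member region in PC9, the internal start of BCL2L1. Several of these calls were lost without a single library. The highest adjusted p was 0.0832 at BCL2 +62.9 kb, 0.212 at BCL2L1 +22.8 kb and 0.129 at BCL2L11 +36.9 kb. At PMAIP1 it was 0.274 at −18.0 kb, 0.151 at −52.5 kb and 0.167 at +4.7 kb.

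In H1975 the difference was called at 20 such regions. Among the guardians it was 2.92 at the internal start of BCL2L1, 1.60 at +8.2 kb, 1.48 at +19.9 kb, 0.87 at +22.8 kb and −1.28 at +5.7 kb, and 2.23 at BCL2A1 −38.1 kb. At BCL2L11 it was 2.57 at +17 kb, 2.18 at +15.8 kb, 0.41 at the start and −1.67 at +36.9 kb. At BMF it was 3.29 at the second start, 0.83 at +24.0 kb and 0.38 at the main start. At PMAIP1 it was 2.63 at +16.8 kb, 2.62 at +23.1 kb, 1.77 at −18.0 kb, 1.28 at +53.0 kb and 0.57 at the start. At HRK it was −2.34 at the start and −1.11 at the internal start. At BCL2A1 −38.1 kb, 0 DTP and 0 combination libraries had a peak, so a further fall could hardly be seen there. PMAIP1 −18.0 kb was likewise low in DTPs. Its call was lost without AZD5153 library 1 (adjusted p = 0.051) or combination library 1 (adjusted p = 0.0874). The call at BMF +24.0 kb was lost without several single libraries (adjusted p up to 0.242). Window medians of the difference varied in H1975 with an SD of 0.433. With them removed, the calls over all members were 27 higher and 11 lower (29 and 9 as reported). They were 2 and 4 at BCL2L11 (3 and 2 as reported) and 5 and 1 at PMAIP1 (8 and 0).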

How the results depend on the processing

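No named call changed direction under any alternative run, but the split of BCL2L1 regions in HCC2935 DTPs turned from 5 higher and 2 lower to 1 and 5 with window medians removed. The split of the difference in AZD5153 effect in PC9 went from 3 higher and 8 lower to 1 and 0 with libraries summed and to 2 and 0 with DESeq2, and that of AZD5153 in H1975 from 21 and 27 to 26 and 25 with library size scaling. The number of member regions called moved by more than 1.5 times in these cases. With libraries summed, it was 9, 6, 7 and 1 in PC9 for DTPs, the combination, AZD5153 and the difference in AZD5153 effect (18, 21, 15 and 11 as reported), 9 in place of 21 for the H1975 combination and 10 in place of 17 for the HCC2935 combination. With DESeq2 it was 10 and 2 for the PC9 combination and difference, 13 for the H1975 combination and 9 for the HCC2935 combination. With no filter on low counts, more regions were tested, and it was 4 for the PC9 difference and 11 for the HCC2935 combination. In HCC827 DTPs it was 1 with the replicate block, against 0 without it, and 1 without the libraries numbered 3, an alternative chosen after seeing the data that tested 19 of the 20 regions. In the other cases the cause was not tested.

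With each library left out in turn, the counts ran from 15 to 20, 14 to 21, 11 to 17 and 6 to 12 in PC9 (same order), from 34 to 38, 19 to 23, 45 to 50 and 36 to 40 in H1975, from 25 to 32 and 11 to 19 in HCC2935 (DTPs, combination), and from 21 to 29 for change across lines, and stayed at 0 in HCC827. Of 99 named calls, 79 were made by DESeq2 too, 62 with libraries summed, 89 with window medians removed, 88 with no filter, 95 over annotated regions alone, 96 with library size scaling, and 76 without any single library. Size factors of DESeq2 and the replicate block changed no named call. The replicate numbers of PC9, H1975 and HCC2935 showed no pairing by correlation. HCC827 had the lowest depth and a biological coefficient of variation of 44.9%, beside 0.988% in PC9, 3.19% in H1975 and 10.1% in HCC2935.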
